A study of Mus musculus with 8 samples.

Results

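Most of the genes described here encode proteins that recognise, assemble on or splice introns. The set holds the heterogeneous nuclear ribonucleoproteins (hnRNPs), the serine/arginine-rich (SR) proteins of the Srsf family, the SF3A and SF3B subunits, the proteins of the small nuclear ribonucleoproteins (snRNPs), the PRP factors and the LSm proteins. Some LSm proteins, such as LSm1 and LSm14a, act in the cytoplasm, and all genes of the set are called splicing genes for short. The genes were chosen by symbol (Hnrnp, Srsf, Sf3a or Sf3b, Snrpa to Snrpg, Snrnp, Prpf or Lsm). This gave 85 genes of 45706 in the count table, of which 84 were annotated as protein coding. The other one, Hnrnpa1l2-ps, is a pseudogene and was put in no role. All 85 passed the filter on low counts, and 8 of them averaged under 10 CPM (counts scaled by library size).

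The series compared muscle stem cells after 48 h in culture with freshly isolated ones by RNA-seq, in 3 cultured and 5 fresh libraries. Both groups came from hindlimb muscle of wild-type C57BL/6 female mice of 8 to 12 weeks, sorted as α7-integrin+ CD34+ cells without CD45, CD11b, Sca1 or CD31. The cultured cells had been plated on a hydrogel of 12 kPa stiffness in a growth medium with 20% fetal bovine serum, and the fresh cells were not plated. Cultured replicates 1 to 3 and fresh replicates 4 and 5 shared a lane (run 2), while fresh replicates 1 to 3 were sequenced apart (run 1). The labels do not say whether replicates were separate animals, pools or cultures, so p-values here reflect spread among these libraries alone, which may be technical.

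Splicing removes introns from precursor RNA in a series of assembled complexes. U1 snRNP binds the 5′ splice site, U2 snRNP with SF3A and SF3B binds the branch point, and the tri-snRNP of U4, U6 and U5 then joins and is rearranged into the catalytic spliceosome. Most snRNPs are built around a ring of Sm proteins, while U6 carries a ring of LSm proteins. SR proteins mostly promote and hnRNPs often repress the use of nearby exons, and many of both also bind mature mRNA. Quiescent muscle stem cells are small cells with little cytoplasm and little RNA, and they enlarge before their first division in culture.

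Libraries held 13919508 to 20068199 counts, and 19054 genes were tested. Detected genes numbered 15474 to 17941 in culture, 20560 and 20955 in fresh replicates 4 and 5, and 32921 to 34876 in fresh replicates 1 to 3. Mitochondrial transcripts took 12.83 to 21.02% of counts in culture, 25.39 to 29.32% in run-2 fresh cells and 5.976 to 11.84% in run-1 fresh cells. Of 10 muscle stem cell markers 7 were lower in culture, with summed levels of 1199 to 1414 CPM in cultured and 6039 to 6617 CPM in fresh libraries, and 1 (Myod1) was higher. All 8 cycling-cell markers were higher, with sums of 2003 to 2512 CPM in cultured and 114 to 261 CPM in fresh libraries. The sum over 8 pericyte markers was 34.1 to 51.4 CPM in cultured libraries (Abcc9 and Kcnj8 at 0) and 775 to 2903 CPM in fresh ones, with 6 of 8 lower in culture. Fibro-adipogenic markers summed to 7.59 to 19.0 CPM in cultured (Ly6a at 0) and 877 to 1202 CPM in fresh libraries, with 4 of 6 lower. Schwann cell markers summed to 0.0527 to 3.47 CPM in cultured (Sox10 and S100b at 0) and 50.4 to 811 CPM in fresh libraries, with 5 of 5 lower. The sums for 5 endothelial markers were 0.720 to 41.2 CPM in cultured (Kdr at 0) and 78.1 to 119 CPM in fresh libraries (2 lower), and those for 5 blood cell markers were 0.255 to 5.92 CPM in cultured (Lyz2 at 0) and 23.6 to 68.1 CPM in fresh libraries (1 lower). The endothelial marker Pecam1, not called, had 35.1, 0.103 and 38.1 CPM in cultured replicates 1 to 3 and 0.195 to 4.50 CPM in fresh libraries. Muscle fibre markers summed to 11.3 to 77.6 CPM in cultured and 23.6 to 28.5 CPM in fresh libraries (1 of 6 lower). The part of these cell types in the values below was not tested, and in bulk RNA fewer cells of a type and less RNA per cell cannot be told apart.

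More splicing genes rose than fell in cultured cells. Of the 85 genes 33 rose, 3 fell and 49 did not pass the test (edgeR's quasi-likelihood test, adjusted p under 0.05 over all genes tested). Over all genes tested, 8.87% were called higher and 18.0% lower, 26.9% in either direction. This split, 1691 higher and 3431 lower, was 2452 and 2857 without scaling factors. Among the 8910 genes that averaged at least 10 CPM, 16.5% were called higher and 16.6% lower, and of the 77 splicing genes at that level 33 were called higher and 2 lower. Of the 33 that rose, 32 did so by at least 2-fold, and their fold changes ran from 1.78 (Hnrnpa2b1) to 7.15 (Lsm2). The median log2 fold change was 1.04 over the splicing genes and -0.21 over all genes tested. Cultured libraries were above every fresh library for 46 of the 85 and below every fresh library for 2, while 13.7% of all genes tested lay above and 26.1% below. At 10 CPM or more these counts were 45 and 2 of 77, and 23.8% and 24.5% of all genes at that level. Since the run is a term of the model, the fold change sets the cultured libraries against fresh replicates 4 and 5, with the run-1 libraries informing only the spread.

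The count of genes called rested in part on single libraries. It was 36 with all 8 libraries, 23 without fresh replicate 4, 20 without fresh replicate 5 and 22 in run 2 alone. The counts over all genes in these fits fell too, and were 5122, 3402, 3337 and 2780 in the same order. In all 8 fits that each left out one library 16 of the 36 were called, and 13 were called in these and in 8 other alternatives to the test, its scaling or its terms. Among those 13 were Hnrnpa1, Hnrnpab, Hnrnpd, Hnrnpf, Lsm2, Prpf3, Prpf31, Prpf4, Sf3a3, Snrpa1, Snrpd1 and Srsf5. No alternative called any of the 36 in the opposite direction. Without scaling factors the median of all genes moved up by 0.24, to 0.03, and the splicing genes' median was 1.43, so their distance from all genes was 1.40 there and 1.25 with TMM scaling.

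**Figure D1:**
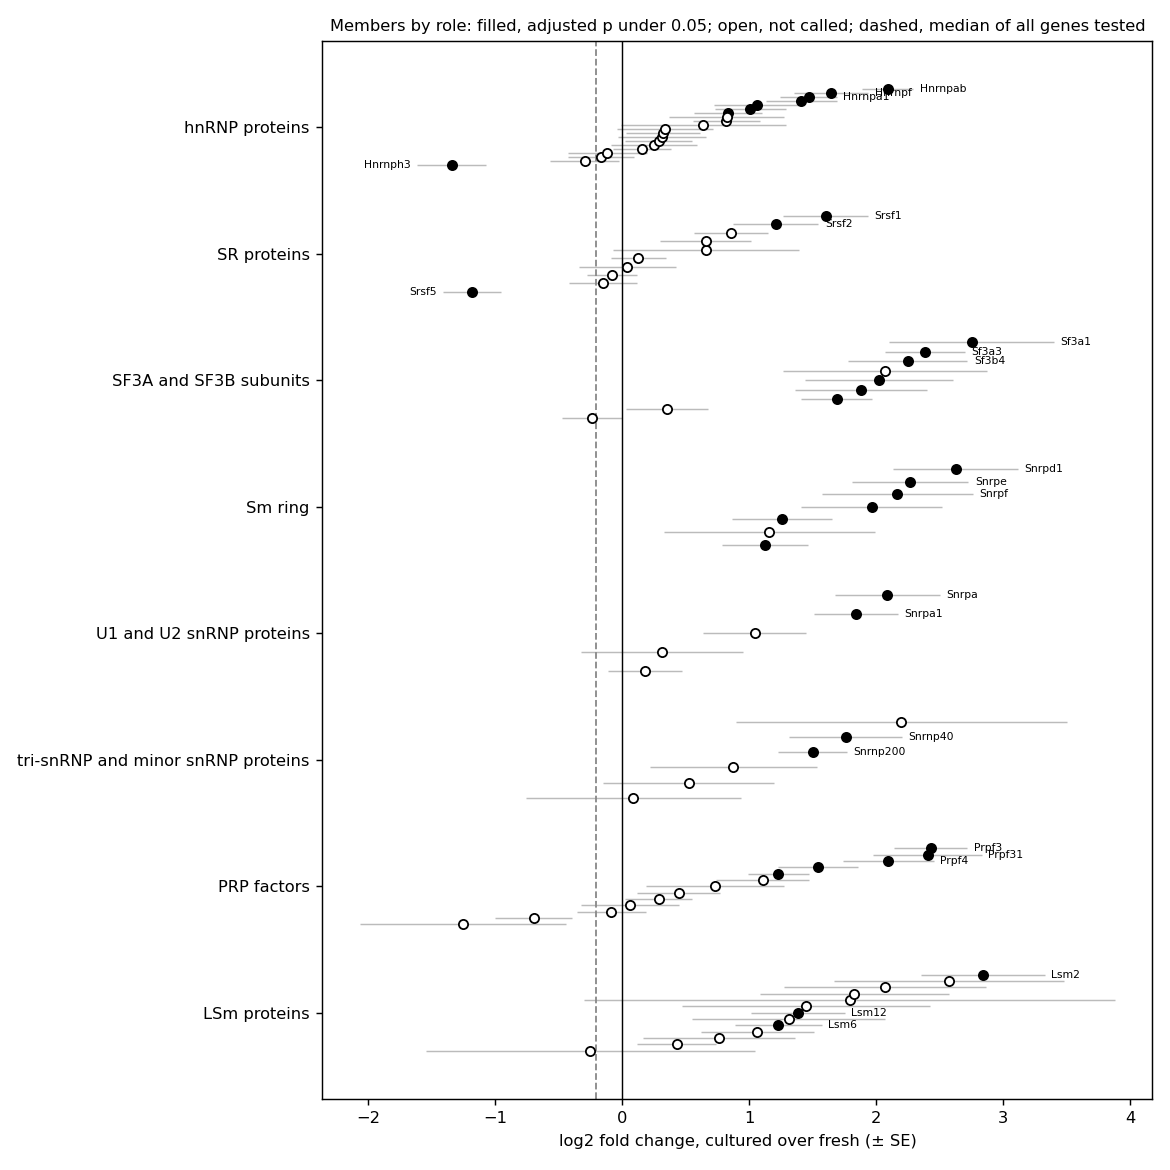
Log2 fold change of each splicing gene, cultured over fresh (x axis, ± SE from the model), in rows by role. Filled points passed the adjusted p threshold and open ones did not. The dashed line is the median of all genes tested (-0.21), and Srsf12 (0 counts in culture) and the pseudogene are not drawn. All 7 Sm ring points lie right of 0, while SR proteins lie on both sides.

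As a share of the library, the 85 genes took 1.53, 1.58 and 1.63% of counts in cultured replicates 1 to 3, against 0.934, 0.776, 0.868, 0.747 and 0.724% in fresh replicates 1 to 5. The mean shares were 1.58 ± 0.0520% in cultured and 0.810 ± 0.0884% in fresh libraries (SD, n = 3 and 5), and the groups did not overlap. No test was run on this sum. The hnRNP genes held the most, 0.716 ± 0.0475% of counts in cultured and 0.328 ± 0.0248% in fresh libraries. Sm ring genes took 0.0481 ± 0.0018% in cultured and 0.0117 ± 0.0032% in fresh libraries. SR protein genes took 0.276 ± 0.0157% in cultured and 0.211 ± 0.0405% in fresh libraries. All these shares are of unscaled counts, where the SR groups did not overlap (0.266 to 0.294% and 0.167 to 0.259%). With TMM scaling, cultured replicate 2 lay among the fresh values for the SR genes. Within the splicing genes the mix differed: SR proteins made up 16.9 to 18.0% of these genes' counts in cultured and 23.1 to 28.2% in fresh libraries, and the Sm ring 2.98 to 3.08% in cultured and 1.06 to 1.79% in fresh libraries. Neither pair of ranges overlaps.

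**Figure D2:**
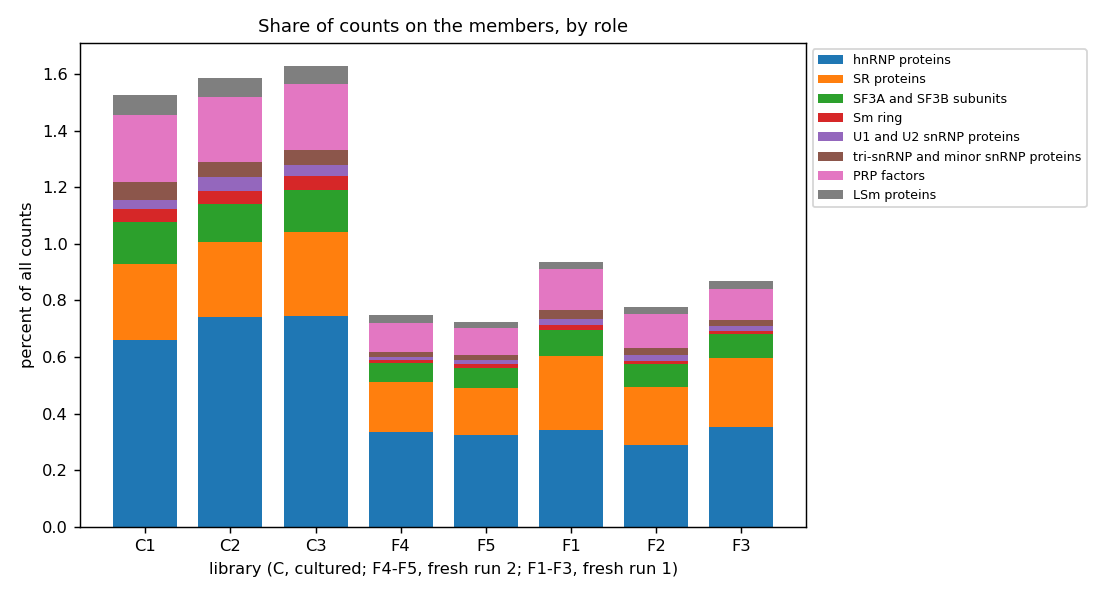
Percent of all counts in each library (y axis) on the splicing genes, stacked by role, for cultured replicates (C1 to C3), fresh replicates of run 2 (F4, F5) and fresh replicates of run 1 (F1 to F3). The 3 cultured bars reach 1.53 to 1.63% and the 5 fresh bars 0.724 to 0.934%.

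The hnRNPs are abundant nuclear proteins that coat nascent transcripts. Of 20 hnRNP genes 7 rose, 1 fell and 12 did not pass the test, with a median log2 fold change of 0.49. Called higher were 8.87% of all genes tested and 16.5% of those of at least 10 CPM, and lower 18.0% and 16.6%. Hnrnpab, which encodes an A/B-type hnRNP, lies on chromosome 11 (mm10, 51600100 to 51606847, minus strand). It had 597, 623 and 579 CPM in cultured libraries, against 241, 236, 233, 133 and 149 CPM in fresh replicates 1 to 5 (log2 fold change 2.09 ± 0.20, adjusted p = 0.000332). All cultured values were well above all fresh ones, and the run-2 fresh libraries were below those of run 1. Hnrnpf, which binds runs of G and regulates exon use, had 761, 422 and 603 CPM in cultured libraries, against 266, 201, 234, 198 and 182 CPM in fresh replicates 1 to 5 (log2 fold change 1.65 ± 0.29, adjusted p = 0.00473). Hnrnpa1, a repressor of exons that also shuttles to the cytoplasm, had 465, 466 and 529 CPM in cultured libraries, against 185, 143, 184, 169 and 183 CPM in fresh replicates 1 to 5 (log2 fold change 1.47 ± 0.22, adjusted p = 0.00255). Neither gene's groups overlapped, and the fresh values of both were close together. Hnrnpd, also known as AUF1 and a regulator of mRNAs with AU-rich elements, rose with a log2 fold change of 1.41 ± 0.28 (adjusted p = 0.00684). Hnrnpc, which binds uridine tracts, and Hnrnpm rose by 1.06 ± 0.34 (adjusted p = 0.0478) and 1.01 ± 0.28 (adjusted p = 0.027) on the log2 scale. Both calls were lost when single libraries were left out. Without any one of cultured replicate 1 and fresh replicates 1 to 5, Hnrnpc had an adjusted p between 0.0572 and 0.177, and Hnrnpm had 0.0564, 0.0575 and 0.167 without cultured replicate 2, fresh replicate 4 or fresh replicate 5. Hnrnpd, Hnrnpc and Hnrnpm are named here after their values were seen.

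The gene of this family that fell was Hnrnph3, which encodes a member of the hnRNP H group and lies on chromosome 10 (63014664 to 63024217, minus strand). It had 37.8, 29.7 and 29.8 CPM in cultured libraries, against 72.99, 67.4, 81.5, 92.2 and 72.6 CPM in fresh replicates 1 to 5 (log2 fold change -1.35 ± 0.27, adjusted p = 0.00774). Every cultured value was below every fresh value. Without fresh replicate 4 the adjusted p was 0.0604. Its relatives Hnrnph1 and Hnrnph2 did not pass the test. Hnrnph2, named after its values were seen, had 201, 84.6 and 28.2 CPM in cultured libraries, against 48.7, 46.7, 59.01, 60.6 and 74.01 CPM in fresh replicates 1 to 5, so its cultured libraries spanned the fresh ones on both sides. Its log2 fold change was 0.64 ± 0.65 (adjusted p = 0.511), and -0.19 (adjusted p = 0.85) without cultured replicate 1. Hnrnpk, which binds C-rich sequence, had a log2 fold change of 0.82 ± 0.27 (adjusted p = 0.0501), and without cultured replicate 2 or 3 its adjusted p was 0.0462 or 0.0475. Hnrnpll, a paralogue of Hnrnpl known for controlling splicing of Ptprc in lymphocytes, had a log2 fold change of 0.31 ± 0.35 (adjusted p = 0.555), and Hnrnpdl, a relative of Hnrnpd, had a log2 fold change of 0.15 ± 0.23 (adjusted p = 0.672).

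For several hnRNP and PRP genes the fitted difference between the fresh libraries of run 2 and run 1 was larger than the culture difference, at 1.22 on the log2 scale for Hnrnpa2b1, 1.68 for Hnrnpu, 1.06 for Hnrnph1, 1.14 for Prpf39 and -0.80 for Hnrnpl. No splicing gene passed the test for the run (edgeR's quasi-likelihood test, 0 of 85, against 0.189% of all genes tested). An unadjusted p under 0.05 in that test was found for 16 of the 85 and for 2959 of all 19054 genes. DESeq2 called a run effect for 6 of the 85, among them Hnrnpa2b1, Hnrnpab, Hnrnpu, Prpf3 and Prpf39, and for 921 of all genes. Hnrnpa2b1, a relative of Hnrnpa1 that also sorts RNAs for transport, had 1248, 1227 and 1037 CPM in cultured libraries, against 251, 232, 366, 754 and 562 CPM in fresh replicates 1 to 5. All cultured values were above all fresh ones, and the run-2 fresh values were above those of run 1. Its log2 fold change was 0.83 ± 0.27 (adjusted p = 0.0479) in the model with the run term, 2.11 (adjusted p = 0.00193) against the run-1 libraries alone and 0.81 (adjusted p = 0.0517) in run 2 alone. Without cultured replicate 1 or 2, or fresh replicate 1, 2, 4 or 5, its adjusted p was 0.0531 to 0.253. Hnrnpu, a nuclear scaffold protein, had 314, 622 and 500.1 CPM in cultured libraries, against 69.9, 47.9, 136, 302 and 240.1 CPM in fresh replicates 1 to 5 (log2 fold change 0.82 ± 0.45, adjusted p = 0.217). Its log2 fold change was 2.57 (adjusted p = 0.00443) against run 1 alone and 0.80 (adjusted p = 0.169) in run 2 alone.

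Hnrnph1 had 567, 451 and 579 CPM in cultured libraries, against 271, 246, 425, 681 and 628 CPM in fresh replicates 1 to 5 (log2 fold change -0.30 ± 0.27, adjusted p = 0.461). Cultured libraries were above all run-1 fresh libraries and below both of run 2, with log2 fold changes of 0.82 (adjusted p = 0.0431) against run 1 alone and -0.32 (adjusted p = 0.369) in run 2 alone. The sign of Hnrnph1 thus turned with the fresh libraries used, and also without scaling factors. Hnrnpl, which binds CA repeats, had 111, 77.1 and 129 CPM in cultured libraries, against 216, 205, 198, 113 and 124 CPM in fresh replicates 1 to 5 (log2 fold change -0.17 ± 0.26, adjusted p = 0.689). Its log2 fold change was -0.91 (adjusted p = 0.0215) against run 1 alone and -0.18 (adjusted p = 0.748) in run 2 alone. Prpf39, a U1-associated factor, had 78.3, 82.5 and 60.7 CPM in cultured libraries, against 49.7, 41.5, 72.2, 122 and 118 CPM in fresh replicates 1 to 5 (log2 fold change -0.70 ± 0.30, adjusted p = 0.119). Its log2 fold change was 0.50 (adjusted p = 0.237) against run 1 alone and -0.72 (adjusted p = 0.152) in run 2 alone. These comparisons share the cultured libraries, and run and culture cannot be told apart in the one against run 1. Prpf39 was named after its run values were seen.

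**Figure D3:**
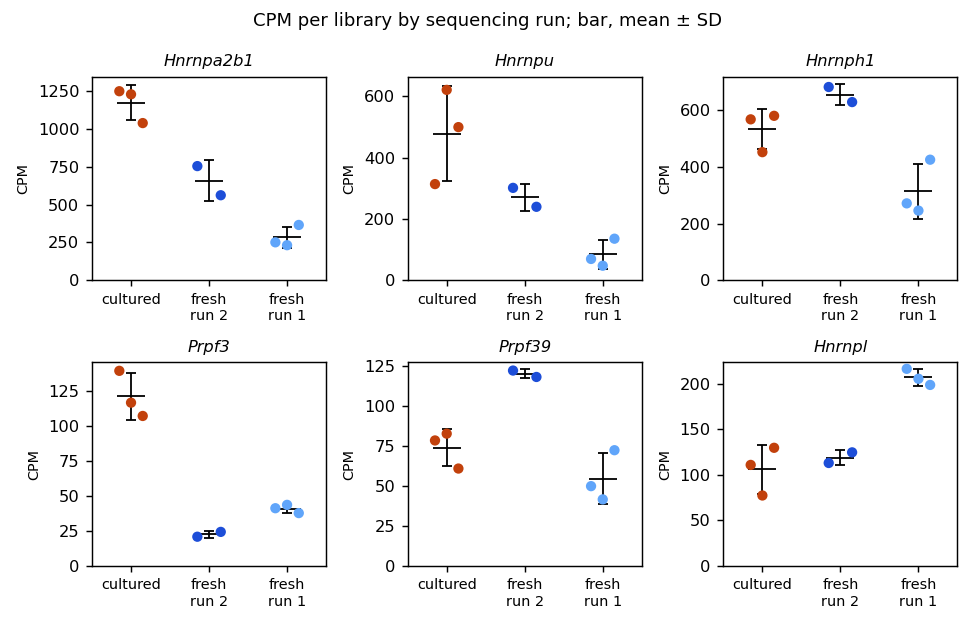
CPM per library (y axis, from 0) for 6 genes in cultured libraries, fresh libraries of run 2 and fresh libraries of run 1. Points are libraries and bars the mean ± SD. Run-2 fresh libraries lie between the others for Hnrnpa2b1, above both for Hnrnph1 and Prpf39, and below both for Prpf3.

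SR proteins bind exonic enhancers and bring snRNPs to weak splice sites. Of the 11 SR protein genes 2 rose, 2 fell and 7 did not pass the test, with a median log2 fold change of 0.13, beside the 8.87% higher and 18.0% lower of all genes tested. At 10 CPM or more the shares of all genes were 16.5% higher and 16.6% lower. Srsf1, the founding member of the family and a splicing and translation regulator, had 213, 260.1 and 229 CPM in cultured libraries, against 58.9, 52.5, 102, 82.9 and 71.3 CPM in fresh replicates 1 to 5 (log2 fold change 1.60 ± 0.33, adjusted p = 0.0085). Srsf2, an SR protein that stays in the nucleus, had 1055, 592 and 595 CPM in cultured libraries, against 287, 219, 304, 387 and 260.2 CPM in fresh replicates 1 to 5 (log2 fold change 1.21 ± 0.34, adjusted p = 0.0287). For both genes all cultured values were above all fresh ones, and cultured replicate 1 was the highest for Srsf2. Without fresh replicate 5 the adjusted p was 0.0633 for Srsf1 and 0.177 for Srsf2.

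Srsf5, first described in rat as a gene induced by insulin and in regenerating liver, went the other way. It lies on chromosome 12 (80945504 to 80950507, plus strand) and had 213, 294 and 204 CPM in cultured libraries, against 980.5, 779.8, 899, 554 and 524 CPM in fresh replicates 1 to 5 (log2 fold change -1.19 ± 0.23, adjusted p = 0.00633). All cultured values were below all fresh ones, and the run-2 fresh values were below those of run 1. Per kilobase of median coding transcript length, Srsf5 had the highest mean over the 5 fresh libraries at 499 CPM per kb. It ranked 13 in culture at 158 CPM per kb. On the same scale Hnrnpa2b1 ranked 1 in culture at 713 CPM per kb and 2 in fresh cells at 264 CPM per kb, and Srsf2 ranked 2 in culture at 464 CPM per kb and 6 in fresh cells at 181 CPM per kb. In the run-2 fresh libraries Srsf5 averaged 539 CPM and Hnrnpa2b1 658 CPM, and there Hnrnpa2b1 was above Srsf5 per kilobase. The other gene called lower, Srsf12, a low-abundance SR protein gene named here after its values were seen, had 0 counts in all 3 cultured libraries, and 2.17, 0.735, 1.14, 0 and 2.08 CPM in fresh replicates 1 to 5. Its mean in run-2 fresh libraries was 1.04 CPM, all of it from fresh replicate 5. Taking 3 counts over the cultured libraries as the floor (0.0516 CPM), culture was at least 20.2-fold below that mean. Fresh replicate 4, also at 0, did not differ from culture. The call had an adjusted p of 0.0488 and held when fresh replicate 4 was left out. Leaving out any other single library gave an adjusted p of 0.0696 to 1, the last without fresh replicate 5, since both groups of run 2 are then at 0.

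The SR protein genes Srsf3, Srsf7 and Srsf11 did not pass the test. Srsf3, an SR protein that also promotes mRNA export, had 524, 510.3 and 537 CPM in cultured libraries, against 394, 290.1, 410.4, 486 and 475 CPM in fresh replicates 1 to 5 (log2 fold change 0.13 ± 0.21, adjusted p = 0.72). The cultured values lay above all fresh ones, but by a margin that was small beside the model's error. Srsf11 had a log2 fold change of -0.08 ± 0.20 (adjusted p = 0.814) and Srsf7, a close relative of Srsf3, 0.86 ± 0.29 (adjusted p = 0.0573). Without cultured replicate 2 Srsf7 had a log2 fold change of 1.08 (adjusted p = 0.0173), and Srsf11 turned to 0.33 without scaling factors.

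**Figure D4:**
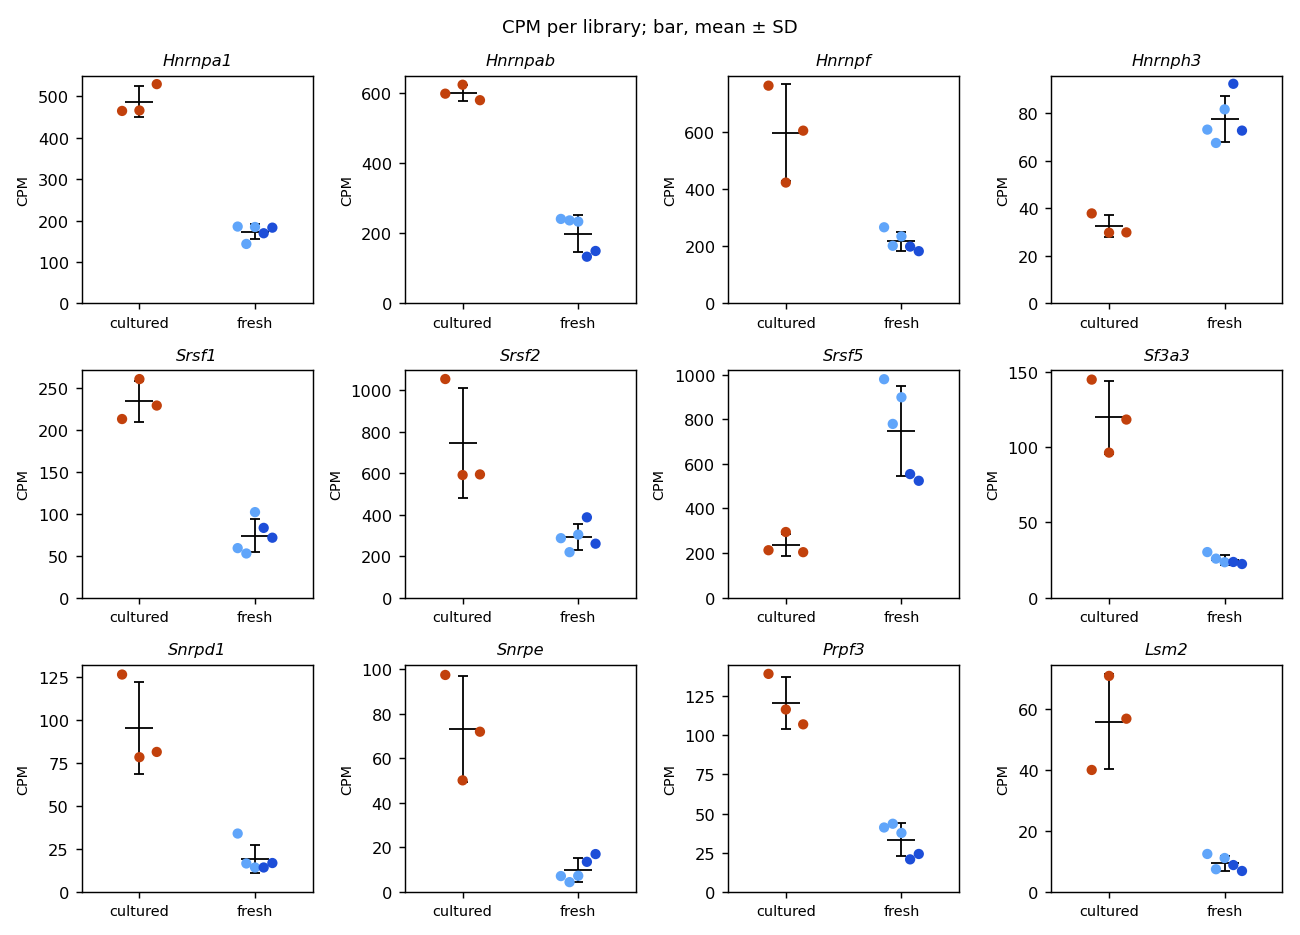
CPM per library (y axis, from 0) for 12 genes in cultured libraries (left in each panel) and fresh libraries (right, light points run 1 and dark points run 2). Bars are the mean ± SD. In 10 panels every cultured point is above every fresh point, and for Hnrnph3 and Srsf5 every cultured point is below.

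SF3A and SF3B are the protein complexes of U2 snRNP that hold the branch point. Of their 9 genes 6 rose, none fell and 3 did not pass the test, with a median log2 fold change of 2.02. The share called higher was 8.87% of all genes tested and 16.5% of those of at least 10 CPM. Sf3a3, an SF3A subunit, lies on chromosome 4 (124714776 to 124732460, plus strand). It had 145, 96.2 and 118 CPM in cultured libraries, against 30.2, 25.8, 23.4, 23.6 and 22.3 CPM in fresh replicates 1 to 5 (log2 fold change 2.38 ± 0.32, adjusted p = 0.00138). Sf3a1, a subunit that also contacts U1 snRNP, had 362, 75.4 and 114 CPM in cultured libraries, against 70.4, 60.1, 48.2, 29.00 and 25.7 CPM in fresh replicates 1 to 5 (log2 fold change 2.75 ± 0.65, adjusted p = 0.0143). Sf3b4, a subunit with RNA recognition motifs, had 43.2, 111 and 110.3 CPM in cultured libraries, against 29.7, 30.9, 26.4, 21.4 and 15.8 CPM in fresh replicates 1 to 5 (log2 fold change 2.25 ± 0.47, adjusted p = 0.00868). The groups of all 3 genes did not overlap, but cultured replicate 1 was far above the other cultured libraries for Sf3a1 and far below them for Sf3b4. Without cultured replicate 1 the log2 fold change of Sf3a1 was 1.85 (adjusted p = 0.00395), without fresh replicates 4 or 5 its adjusted p was 0.0776 or 0.0956, and without fresh replicate 5 that of Sf3b4 was 0.0747.

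Sf3b3, Sf3a2 and Sf3b6, named after their values were seen, complete the SF3 genes that rose, at log2 fold changes of 1.69 ± 0.28 (adjusted p = 0.00366), 1.88 ± 0.52 (adjusted p = 0.0277) and 2.02 ± 0.58 (adjusted p = 0.0326). Sf3b6 encodes the small subunit next to the branch point and was 52.9, 36.7 and 60.03 CPM in cultured libraries and 7.41, 5.61, 5.70, 18.6 and 5.93 CPM in fresh replicates 1 to 5, where replicate 4 stood above the others. Without fresh replicate 4 its log2 fold change was 3.12 (adjusted p = 0.0197), without fresh replicate 5 1.43 (adjusted p = 0.149), and without fresh replicate 1, 2 or 3 or cultured replicate 3 its adjusted p was 0.0537 to 0.0647. Sf3a2 had adjusted p values of 0.0516 to 0.149 without cultured replicate 2 or fresh replicate 1, 2, 4 or 5. Sf3b5, likewise named after its values were seen, missed the threshold at a log2 fold change of 2.07 ± 0.81 (adjusted p = 0.0892) and had a log2 fold change of 2.50 (adjusted p = 0.0202) without cultured replicate 2. Sf3b1 and Sf3b2 did not pass either. Sf3b1, whose protein clamps the branch point, had 592, 426 and 465 CPM in cultured libraries, against 506, 405, 575, 599 and 568 CPM in fresh replicates 1 to 5 (log2 fold change -0.24 ± 0.24, adjusted p = 0.495). Sf3b2 had a log2 fold change of 0.35 ± 0.32 (adjusted p = 0.46). For Sf3b1 the groups overlapped.

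Promoters of the splicing genes were read from RefSeq (GRCm38.p6, 250 bases before to 50 after the annotated start), which had an entry for 72 of the 85. These 72 had 91 entries, and the first entry of each gene was used. Motifs were searched on both strands, and none of them holds the letters of another. CCGGAAG, the core of an ETS-type site, stood in 30.6% of these promoters, in 9.12% of all 27025 promoters and in 20.0% of the 6407 promoters of genes that averaged at least 10 CPM. TGCGCA, part of an NRF1-type site, stood in 30.6%, 8.06% and 16.1% of the same sets, and one or the other in 55.6%, 15.8% and 32.4%. TATAAA stood in 9.72%, 14.2% and 6.57%, CACGTG in 11.1%, 7.24% and 11.1%, and CCAAT in 45.8%, 37.9% and 38.2%. The share with either of the first pair was 59.3% among the 27 promoters of genes that rose and 52.4% among the 42 of genes not called. By role, CCGGAAG stood in 6 of 7 SF3 promoters (85.7%) and in 2 of 18 hnRNP promoters (11.1%).

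The matches in the SF3 promoters are shown because this role had the highest share with CCGGAAG, a choice made after the shares were seen. Sf3b4, which rose, and Sf3b5, which did not pass the test, had no promoter entry. Any link between the motif and the rise was not tested. Each line gives 30 bases around the match, 5′ to 3′ on the gene's strand, with CCGGAAG or its reverse complement CTTCCGG in capitals. Sf3b2 was the one gene of these 6 that was not called, and the capitals at the left end of the Sf3b6 line are the tail of another match.
Sf3a1, chr11:4160335-4160364, plus strand: gagagggcgggaCCGGAAGtgctcccgcgg
Sf3a2, chr10:80798647-80798676, plus strand: acgcctttgctcCCGGAAGggatcgcttcg
Sf3a3, chr4:124714759-124714788, plus strand: tcccccaagacaCTTCCGGgacacgcggaa
Sf3b2, chr19:5295451-5295480, minus strand: tggattacgcaaCCGGAAGtttctggaagt
Sf3b3, chr8:110847015-110847044, minus strand: tcccggtgggcgCTTCCGGgcttgcgaggt
Sf3b6, chr12:4817526-4817555, plus strand: CCGGtccgcaatCCGGAAGcgttctggagc
The first base of the match lay 7 bases before the annotated start in Sf3a1, 11 before it in Sf3b2, 70 in Sf3b6, 76 in Sf3a2, 90 in Sf3a3 and 229 in Sf3b3. The Sf3b1 promoter, of a gene that did not pass the test, held TGCGCA instead.

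The next stretches are the 100 bases before the start of 4 picked genes of other roles, all with a match in that stretch. Annotated exons of any gene cover 16 of these bases for Hnrnpf and 20 for Prpf3. Snrnp200, Hnrnpf and Prpf3 rose and Srsf5 fell. Whether a motif goes with direction was not tested. Capitals mark CCGGAAG or CTTCCGG, and TGCGCA in Prpf3.
Snrnp200, chr2:127208286-127208385, plus strand: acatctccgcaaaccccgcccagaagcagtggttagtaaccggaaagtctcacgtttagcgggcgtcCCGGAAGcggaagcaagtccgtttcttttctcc
Hnrnpf, chr6:117900240-117900339, plus strand: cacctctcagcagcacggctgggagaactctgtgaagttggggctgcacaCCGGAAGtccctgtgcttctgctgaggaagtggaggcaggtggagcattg
Prpf3, chr3:95855886-95855985, minus strand: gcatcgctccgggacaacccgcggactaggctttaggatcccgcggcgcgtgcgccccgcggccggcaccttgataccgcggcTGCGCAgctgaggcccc
Srsf5, chr12:80945399-80945498, plus strand: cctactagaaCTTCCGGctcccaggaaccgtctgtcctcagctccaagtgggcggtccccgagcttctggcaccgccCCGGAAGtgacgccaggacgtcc
Srsf5 carries CCGGAAG at 90 and 23 bases before its start, once on each strand. A match is a stretch of letters, and binding was not measured.

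The Sm proteins form the ring around the RNA of U1, U2, U4 and U5. Of the 7 Sm genes 6 rose, none fell and 1 did not pass the test, with log2 fold changes of 1.12 to 2.63 and a median of 1.96. The share called higher was 8.87% of all genes tested and 16.5% of those of at least 10 CPM. Snrpe lies on chromosome 1 (133603871 to 133610291, minus strand) and had 97.3, 50.02 and 71.9 CPM in cultured libraries, against 7.07, 4.34, 7.20, 13.5 and 16.9 CPM in fresh replicates 1 to 5 (log2 fold change 2.26 ± 0.46, adjusted p = 0.00771). Snrpd1 had 126, 78.3 and 81.4 CPM in cultured libraries, against 33.9, 16.5, 14.2, 14.2 and 16.7 CPM in fresh replicates 1 to 5 (log2 fold change 2.63 ± 0.49, adjusted p = 0.00576). Snrpf had 37.6, 38.96 and 29.9 CPM in cultured libraries, against 15.04, 7.15, 5.64, 9.29 and 6.51 CPM in fresh replicates 1 to 5 (log2 fold change 2.17 ± 0.60, adjusted p = 0.027). In these 3 genes all cultured values were above all fresh ones, and fresh replicate 1 was the highest fresh library for Snrpd1 and Snrpf. Snrpb, which encodes an Sm protein with an arginine-rich tail that is methylated, rose by 1.12 ± 0.34 (adjusted p = 0.0389) on the log2 scale. Snrpd2 and Snrpg, named after their values were seen, rose by 1.96 ± 0.55 (adjusted p = 0.0297) and 1.26 ± 0.39 (adjusted p = 0.0441) on the log2 scale. Snrpd3 had 18.02, 10.04 and 27.3 CPM in cultured libraries, against 16.8, 20.3, 20.9, 1.96 and 14.6 CPM in fresh replicates 1 to 5 (log2 fold change 1.16 ± 0.83, adjusted p = 0.341). Its groups overlapped, and fresh replicate 4 was far below all other libraries. Without fresh replicate 4 or 5 its log2 fold change was 0.39 (adjusted p = 0.797) or 3.25 (adjusted p = 0.0503).

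Most Sm calls did not hold when a library was left out. Without fresh replicate 4 the adjusted p was 0.0509 for Snrpe and 0.0883 for Snrpf, and without fresh replicate 5 it was 0.159 for Snrpf. Snrpd2 had a log2 fold change of 3.01 (adjusted p = 0.0185) without fresh replicate 5, and adjusted p values of 0.0514, 0.0517 and 0.135 without fresh replicate 2, cultured replicate 2 and fresh replicate 4. Snrpb had 0.0581 to 0.151 without cultured replicate 2 or any fresh library, and Snrpg 0.0722 to 0.213 without cultured replicate 2 or 3 or fresh replicate 2, 4 or 5. Snrpd1 was called in every such fit.

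**Figure D5:**
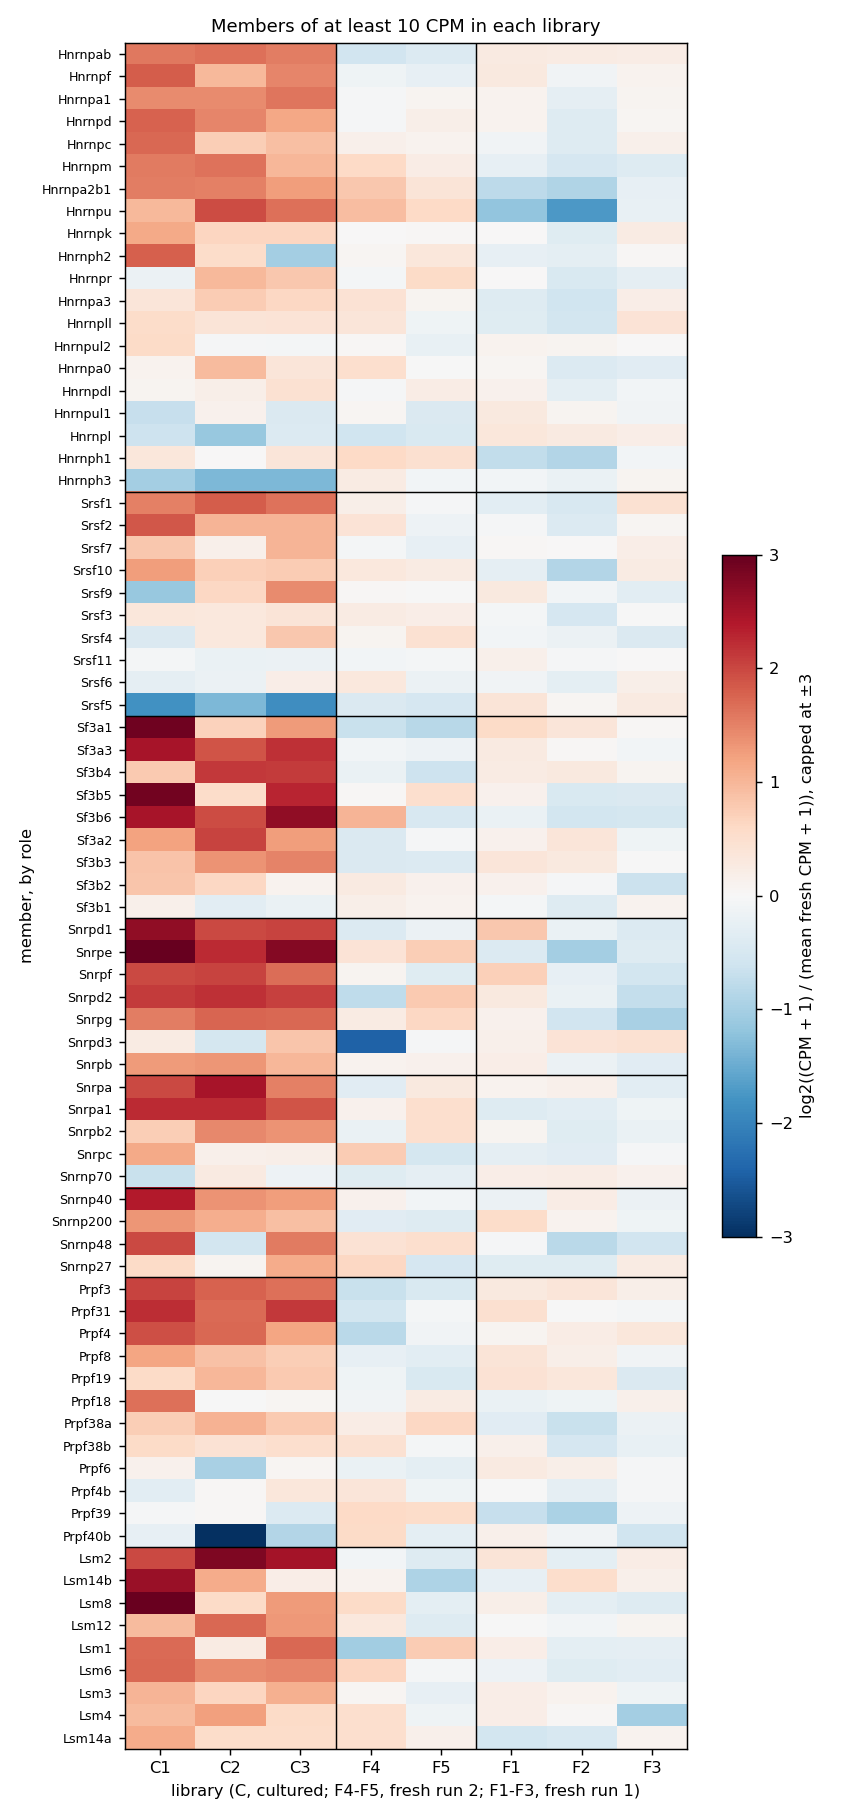
Level in each library of 76 splicing genes that averaged at least 10 CPM, as log2 of CPM + 1 over mean fresh CPM + 1 (red higher, blue lower, colour capped at 3), in rows by role from hnRNPs at the top to LSm proteins at the bottom. Cultured libraries (C1 to C3) are red for most rows, and Hnrnph3, Srsf5, Hnrnpl and Prpf40b are among the rows that are blue in all 3.

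Proteins specific to U1 and U2 snRNP split by gene. Of 5 genes 2 rose and 3 did not pass the test, beside 8.87% higher of all genes tested and 16.5% of those of at least 10 CPM. Snrpa, which encodes a protein bound to a stem-loop of U1 RNA, had 96.3, 136 and 68.8 CPM in cultured libraries, against 25.4, 26.4, 18.8, 18.3 and 28.9 CPM in fresh replicates 1 to 5 (log2 fold change 2.09 ± 0.41, adjusted p = 0.00705). Snrpa1, which encodes a U2 protein, had 91.00, 90.6 and 71.5 CPM in cultured libraries, against 13.96, 14.6, 16.7, 20.4 and 26.7 CPM in fresh replicates 1 to 5 (log2 fold change 1.84 ± 0.33, adjusted p = 0.00514). Both genes were higher in every cultured library than in any fresh one, and Snrpa had an adjusted p of 0.0547 without fresh replicate 4. Snrpb2, which encodes the partner of the Snrpa1 protein on U2 RNA, had a log2 fold change of 1.04 ± 0.41 (adjusted p = 0.0913), and 1.29 (adjusted p = 0.0291) without cultured replicate 1. Snrnp70, whose protein binds U1 RNA and is contacted by SR proteins, had 73.5, 139 and 104 CPM in cultured libraries, against 133, 136, 127, 90.9 and 96.03 CPM in fresh replicates 1 to 5 (log2 fold change 0.18 ± 0.29, adjusted p = 0.705). Its groups overlapped, with fresh run-1 values among the highest.

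Among the genes of the tri-snRNP and of the minor spliceosome's U11/U12 particle, 2 of 6 rose and 4 did not pass. The share called higher was 8.87% of all genes tested and 16.5% of those of at least 10 CPM. Snrnp200 encodes the helicase that unwinds U4 from U6 and had 421, 356 and 312 CPM in cultured libraries, against 243, 179.7, 152, 131 and 126 CPM in fresh replicates 1 to 5 (log2 fold change 1.50 ± 0.27, adjusted p = 0.00521). Snrnp40, a U5 protein, had 114, 55.5 and 51.5 CPM in cultured libraries, against 18.7, 24.98, 18.7, 23.4 and 20.1 CPM in fresh replicates 1 to 5 (log2 fold change 1.76 ± 0.45, adjusted p = 0.0194). Neither gene's groups overlapped, and cultured replicate 1 was the highest for both. Without fresh replicate 4 or 5 Snrnp40 had an adjusted p of 0.0754 or 0.111. Snrnp27, a tri-snRNP protein, had a log2 fold change of 0.52 ± 0.67 (adjusted p = 0.614), and 1.33 (adjusted p = 0.379) without fresh replicate 4. Snrnp48, a U11/U12 protein, had 97.3, 16.2 and 72.6 CPM in cultured libraries and 23.6, 13.3, 15.8, 33.04 and 34.7 CPM in fresh replicates 1 to 5 (log2 fold change 0.87 ± 0.66, adjusted p = 0.365), with cultured replicate 2 among the fresh values, and 1.33 (adjusted p = 0.0427) without that library.

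PRP factors include the core of the spliceosome and the proteins of the U4/U6 particle. Of 13 genes 5 rose and 8 did not pass the test, with a median log2 fold change of 0.73. The share called higher was 8.87% of all genes tested and 16.5% of those of at least 10 CPM. Prpf3, Prpf4 and Prpf31 encode the proteins that hold U4 to U6 and to the tri-snRNP. Prpf3 lies on chromosome 3 (95830124 to 95855885, minus strand) and had 139, 116 and 107 CPM in cultured libraries, against 41.1, 43.5, 37.6, 20.7 and 24.2 CPM in fresh replicates 1 to 5 (log2 fold change 2.43 ± 0.29, adjusted p = 0.000831). Prpf31 had 70.1, 48.7 and 66.1 CPM in cultured libraries, against 20.3, 14.3, 13.7, 9.48 and 13.8 CPM in fresh replicates 1 to 5 (log2 fold change 2.40 ± 0.43, adjusted p = 0.00488). Prpf4 had 145, 127 and 86.99 CPM in cultured libraries, against 40.1, 44.01, 47.7, 21.1 and 34.98 CPM in fresh replicates 1 to 5 (log2 fold change 2.09 ± 0.36, adjusted p = 0.00429). In each of the 3 the cultured libraries were above all fresh ones and the run-2 fresh libraries included the lowest value. Prpf8, the scaffold around the catalytic centre, had 950.4, 767 and 699.7 CPM in cultured libraries, against 545, 475, 392, 353 and 335 CPM in fresh replicates 1 to 5 (log2 fold change 1.23 ± 0.24, adjusted p = 0.00654). Its cultured values were above all fresh ones.

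Of the PRP genes that did not pass, Prpf19, the ubiquitin ligase of the complex that activates the spliceosome, had a log2 fold change of 1.10 ± 0.37 (adjusted p = 0.0538), and adjusted p values of 0.0312 and 0.0479 without cultured replicate 1 and fresh replicate 3. Prpf38b had a log2 fold change of 0.28 ± 0.26 (adjusted p = 0.469) and Prpf4b, a kinase of tri-snRNP proteins, -0.09 ± 0.27 (adjusted p = 0.864). Prpf18, a factor of the second catalytic step named after its values were seen, had 98.9, 30.7 and 32.4 CPM in cultured libraries, against 26.9, 27.98, 34.5, 28.5 and 36.7 CPM in fresh replicates 1 to 5, so 1 cultured library alone was high. Its log2 fold change was 0.73 ± 0.54 (adjusted p = 0.361), and 0.02 (adjusted p = 1) without cultured replicate 1. Over all splicing genes, 10 had one cultured library more than 2-fold above both of the others, and in 9 of these it was cultured replicate 1.

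LSm proteins 2 to 8 form the ring on U6 RNA, and LSm1 takes the place of LSm8 in the cytoplasmic ring that promotes mRNA decay. Of 13 LSm genes 3 rose and 10 did not pass the test, with a median log2 fold change of 1.38. The share called higher was 8.87% of all genes tested and 16.5% of those of at least 10 CPM. Lsm2, a subunit of both rings on chromosome 17 (34981862 to 34985891, plus strand), had 39.99, 70.9 and 56.8 CPM in cultured libraries, against 12.4, 7.41, 11.1, 8.78 and 6.84 CPM in fresh replicates 1 to 5 (log2 fold change 2.84 ± 0.49, adjusted p = 0.00435). Lsm6, also in both rings, had 87.8, 70.5 and 73.8 CPM in cultured libraries, against 23.2, 19.8, 20.5, 41.2 and 24.8 CPM in fresh replicates 1 to 5 (log2 fold change 1.23 ± 0.34, adjusted p = 0.0286). Lsm12, an LSm-domain protein outside these rings, had 62.6, 108 and 80.4 CPM in cultured libraries, against 31.4, 29.8, 33.9, 39.9 and 24.3 CPM in fresh replicates 1 to 5 (log2 fold change 1.38 ± 0.37, adjusted p = 0.0234). Cultured values of all 3 were above all fresh ones, and fresh replicate 4 was the highest fresh value for Lsm6 and Lsm12. Without fresh replicate 5 the adjusted p was 0.168 for Lsm6 and 0.159 for Lsm12, without fresh replicate 1, 2 or 3 it was 0.0503 to 0.0563 for Lsm6, and without cultured replicate 2 it was 0.0567 for Lsm12.

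The subunits that tell the rings apart did not pass. Lsm8 had 111, 20.3 and 33.7 CPM in cultured libraries, against 15.2, 10.8, 10.02, 20.3 and 10.7 CPM in fresh replicates 1 to 5 (log2 fold change 1.83 ± 0.74, adjusted p = 0.101), and without cultured replicate 2 a log2 fold change of 2.20 (adjusted p = 0.0356). Without cultured replicate 1 the log2 fold change of Lsm8 was 0.86 (adjusted p = 0.247). Lsm1 had 33.7, 11.7 and 34.7 CPM in cultured libraries, against 11.4, 7.81, 7.98, 4.23 and 17.3 CPM in fresh replicates 1 to 5 (log2 fold change 1.31 ± 0.76, adjusted p = 0.237). Without fresh replicate 4 or 5 the log2 fold change of Lsm1 was 0.67 (adjusted p = 0.651) or 2.66 (adjusted p = 0.106). One cultured library was far above the others for Lsm8 and one was among the fresh values for Lsm1. Lsm14a, a protein of cytoplasmic processing bodies, had a log2 fold change of 0.43 ± 0.31 (adjusted p = 0.344). Its relative Lsm14b, named after its values were seen, had a log2 fold change of 2.07 ± 0.80 (adjusted p = 0.0853) with all libraries. It was 2.46 (adjusted p = 0.0297) without cultured replicate 3, 1.18 (adjusted p = 0.172) without cultured replicate 1 and 2.78 (adjusted p = 0.14) without fresh replicate 4.

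Other genes of the splicing machinery that the symbols above do not take gave 20 higher and 7 lower of 99 tested, with a median log2 fold change of 0.51, beside the 8.87% and 18.0% of all genes. Among all genes of at least 10 CPM, the level of most of these, the shares were 16.5% higher and 16.6% lower. The proteins that build and methylate Sm rings (the SMN and PRMT5 complexes) had 6 of 12 higher and 1, Gemin8, lower. Wdr77, the partner of the arginine methyltransferase Prmt5, had 96.9, 97.9 and 122 CPM in cultured libraries, against 29.7, 21.8, 20.03, 13.6 and 13.1 CPM in fresh replicates 1 to 5 (log2 fold change 2.98 ± 0.34, adjusted p = 0.000744). Every cultured value was above every fresh value. Of 7 kinases that phosphorylate SR proteins 1 rose and 2 fell, with a median of -0.58. Srpk1, a mainly cytoplasmic SR protein kinase, had 290.1, 245 and 276 CPM in cultured libraries, against 113, 82.8, 104, 84.7 and 47.8 CPM in fresh replicates 1 to 5 (log2 fold change 2.03 ± 0.31, adjusted p = 0.00269). Clk1, a nuclear SR protein kinase, had 215, 113 and 95.8 CPM in cultured libraries, against 288, 269, 506, 586 and 557 CPM in fresh replicates 1 to 5 (log2 fold change -2.02 ± 0.39, adjusted p = 0.00673). The groups of both genes did not overlap, with culture high for Srpk1 and low for Clk1.

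Of 35 tissue and alternative splicing regulators 4 rose and 4 fell, beside the 8.87% higher and 18.0% lower of all genes tested. At 10 CPM or more the shares of all genes were 16.5% and 16.6%. The groups in this paragraph were not tested as sets. Tardbp, an RNA-binding protein that represses cryptic exons, had 717, 435 and 579.9 CPM in cultured libraries, against 186, 142, 169, 162 and 128 CPM in fresh replicates 1 to 5 (log2 fold change 1.99 ± 0.29, adjusted p = 0.00195). Rbm20, the regulator of titin splicing in striated muscle, had 17.3, 25.2 and 9.33 CPM in cultured libraries, against 112, 91.96, 90.98, 69.1 and 89.8 CPM in fresh replicates 1 to 5 (log2 fold change -2.20 ± 0.40, adjusted p = 0.0054). Neither gene's groups overlapped. For the U2AF and branch point group 2 of 6 rose, Rbm17 among them (log2 fold change 1.69 ± 0.37, adjusted p = 0.0103, and adjusted p values of 0.0586 and 0.0748 without fresh replicates 4 and 5). Of 9 helicases 3 rose, including Aqr (log2 fold change 1.45 ± 0.33, adjusted p = 0.0117, and 0.0604 and 0.0542 without fresh replicates 4 and 5). Among the complexes around Prp19 that activate the spliceosome 1 of 12 rose, a share close to that of all genes tested. This gene was Cdc5l (log2 fold change 1.21 ± 0.30, adjusted p = 0.018, and 0.0795 and 0.0778 without fresh replicates 4 and 5). Of 7 other tri-snRNP genes 2 rose, including Usp39 (log2 fold change 2.85 ± 0.51, adjusted p = 0.00502), and of 5 exon junction complex genes 1 rose, the helicase Eif4a3 (log2 fold change 1.62 ± 0.31, adjusted p = 0.00639). None of 6 genes specific to the minor spliceosome passed edgeR's quasi-likelihood test, and 1 had an unadjusted p under 0.05.

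For 22 of the 85 genes an exon overlaps a gene on the other strand in GENCODE M21 and for 6 one on the same strand. No source used here says whether counting used strand, so reads of these neighbours may be mixed for genes such as Hnrnpab (with Phykpl), Hnrnph3 (with Rufy2), Srsf2 (with Mfsd11 and Mettl23) and Sf3a2 (with Plekhj1). Expected counts lay more than 0.005 from a whole number in all 8 libraries for 44 of the 85, which is how RSEM records reads divided among genes, and these are uncertain where near-identical copies exist. Total RNA per cell was not measured, and levels are shares of each library's counts.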

How the data were processed

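The authors deposited a table of expected counts per gene, with 1 column per library. The submitters' processing notes name STAR, RSEM and mm10, with versions not given in the sources used here. Per the labels' protocols, RNA was isolated with RNeasy Micro columns and amplified with NuGEN Ovation. Of 45798 lines 92 spike-in lines were left out. Counts were rounded to whole numbers and tested with edgeR 4.0.16 (R 4.3.3): TMM scaling (factors 0.790 to 1.18), filterByExpr, the quasi-likelihood test with run and culture as terms (5 residual degrees of freedom), and Benjamini-Hochberg adjustment at 0.05 over 19054 genes, checked on simulated counts. CPM are per scaled library, and approximate SEs were derived from fold changes and F statistics. Floors and p-values cover no amplification error. The alternatives were DESeq2 1.42.0, other scalings, no filter, other run terms, and leaving out each library. Named genes are, per role, the called genes of 10 CPM or more that changed most (up to 3 each way), the 2 most abundant not called, and a fixed few. Members and lists were chosen with earlier results of these data known. Identity came from GENCODE M21. One gene's own values are not reported here. No pair of replicates agreed within sampling noise.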

Additional observations from a re-analysis of the deposited data

Results flagged for a closer look

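The 5 fresh libraries were searched for a library far from the others in 59 values, those of 58 named genes and the share of counts. This found 3 such values, where chance gives it in about 5% of groups. Lsm6 was at 41.2 CPM in fresh replicate 4, against 19.8 to 24.8 CPM in the other 4. Snrpd1 was at 33.9 CPM in fresh replicate 1, against 14.2 to 16.7 CPM in the others. Cdc5l was at 32.9 CPM in fresh replicate 2, against 43.4 to 45.3 CPM in the others.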

How the results depend on the processing

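The count of splicing genes called was 36, with 22 in run 2 alone, 45 without scaling factors, 33 with median-of-ratios factors, 31 without a filter, 41 with DESeq2, 46 without the run term and 48 against run-1 fresh libraries. Leaving out one library gave 20 to 35. The count for the other splicing genes was 27, with 41 without the run term, 45 against run 1 and 17 to 37 leaving out one library. Over all genes it was 5122, with 2780 in run 2 alone and 3337 to 6163 leaving out one library. Without scaling factors all genes split into 2452 higher and 2857 lower, beside 1691 and 3431. Without mitochondrial genes the splicing genes' share of counts was 1.88% in cultured and 0.967% in fresh libraries. The run effect gave 0 calls without scaling factors and with each fresh library left out.

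With the replicate number as a block in place of the run, 24 splicing genes, 20 other splicing genes and 2482 of all genes were called, and 23 of the 24 were among the 36. Whether the numbers pair the samples is not known. Deviations of same-numbered libraries correlated at 0.0296, 0.0103 and 0.0108, and each cultured library correlated best with its own number. No test was run on these correlations, so they cannot decide whether the samples are paired.

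Of the named genes' values, 817 kept direction and side of the threshold, 61 lost their call, 29 gained one and 21 reversed. All reversed values are log2 fold changes of genes that were not called with all libraries. Without scaling factors they were 0.12 for Hnrnph1, 0.25 for Hnrnpl, 0.36 for Prpf4b, 0.16 for Sf3b1 and 0.33 for Srsf11. Against run 1 alone they were 0.82 for Hnrnph1, 0.23 for Prpf4b, 0.052 for Sf3b1, -0.24 for Snrnp70 and -0.0052 for Snrpd3, without the run term 0.24 for Hnrnph1, 0.053 for Prpf4b and -0.14 for Snrnp70, and with the block 0.80, 0.14, -0.36 and -0.17 for Hnrnph1, Prpf4b, Snrnp70 and Snrpd3. Leaving out one library gave -0.34 to 0.033 for Hnrnpl, -0.29 to 0.23 for Prpf4b and -0.051 to 0.45 for Snrnp70, reversed without cultured replicate 2 (Hnrnpl, Snrnp70), cultured replicate 1 (Prpf4b, 0.13) or fresh replicate 4 (Prpf4b). The cause was not tested. Low counts limit the 8 genes under 10 CPM, and protein sequences were not analysed here.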
